A study of Arabidopsis thaliana with 90 samples.

Results

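Ribonucleotide reductase and thymidine kinase supply deoxynucleotides for DNA synthesis, and in Arabidopsis thaliana 5 genes for them were read here out of 27444 nuclear protein-coding genes. The 5 genes were chosen by locus: RNR1 (AT2G21790), RNR2A (AT3G23580), TSO2 (AT3G27060), TK1A (AT3G07800) and TK1B (AT5G23070). Each gene was taken with 500 bp on each side, and every peak that touched this window was read with its fold enrichment and its summit. The peaks came from chromatin immunoprecipitation sequencing (ChIP-seq) of whole seedlings aged 9 days, of the Col-0 ecotype, grown in continuous white light.

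Ribonucleotide reductase makes deoxyribonucleotides from ribonucleotides, with a large subunit that holds the active site and a small subunit that carries the radical the reaction needs. RNR1 encodes the large subunit, and RNR2A and TSO2 encode small subunits. Thymidine kinase, encoded by TK1A and TK1B, phosphorylates thymidine and so returns it to the nucleotide pool. E2F transcription factors regulate genes of DNA synthesis in plants and animals, and the DREAM complex joins E2F proteins to other cell cycle regulators at such genes.

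The study asked how DREAM relates to WDR5a and to transcription elongation. It held 90 libraries in 30 groups, of which 30 libraries of Col-0 seedlings, 3 biological replicates for each of 10 features, were used, along with a single region list of TBP, the TATA-binding protein. The features were the DREAM protein BTE1 and the transcription factor E2FA, each with an antibody raised against the Arabidopsis protein; WDR5A-HA, the tagged form of a subunit shared by H3K4 methyltransferase complexes, with anti-HA beads; total RNA polymerase II (Pol II); Pol II phosphorylated at Ser5 (Ser5P) or Ser2 (Ser2P) of its repeat domain; H3K4me1, H3K4me2 and H3K4me3; and the histone variant H2A.Z. The genotype of the WDR5A-HA libraries was labelled Col-0, and the sources used here do not give the promoter behind the tagged protein. Libraries of bte1 and e2fa e2fb e2fc mutants, inputs and IgG precipitations were not analysed here.

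The lists held 1395 to 1978 peaks per library for BTE1, 3592 to 5852 for E2FA, and 10431 to 27094 for the other 8 features. The E2FA peaks were called at a more lenient threshold than the rest. Chromatin was sheared to 200 to 500 bp, per the labels, which sets the scale on which summits can be read. In the seedling, total, Ser5P and Ser2P Pol II were called at 3 of 3 photosynthetic marker genes, and none of these forms at either of 2 seed markers. Of 3 markers of dividing cells, total Pol II and Ser5P called 1 (SYP111) and Ser2P 3. Of 2 floral markers, AG had total Pol II (fold 2.31) and AP1 had Ser5P. All values are means over the cells of whole seedlings, so a feature in few cells and a weak feature in many cells cannot be told apart.

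RNR1, TSO2 and TK1A carried BTE1 and E2FA in all 3 libraries of each protein, and RNR2A and TK1B carried neither by that rule. RNR2A had no BTE1 peak in any library and E2FA peaks in 1 of 3. TK1B had no peak of either protein in any of the 6 libraries. A gene is called here when a peak touches its window in all 3 libraries. By this rule BTE1 called 5.33% of all genes, E2FA 8.95%, and both together 1128 genes or 4.11%. Of the related genes RNR2A and TSO2, then, TSO2 alone was called for both proteins, and of TK1A and TK1B, TK1A alone.

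The large subunit gene RNR1, which spans 4601 bp on chromosome 2, had the highest BTE1 fold of the 5 genes. Fold enrichment is the authors' ratio of reads at a peak over the background of the peak caller, taken at the peak and not summed along the gene. BTE1 fold at RNR1 was 19.9 in replicate 1, 42.8 in replicate 2 and 20.4 in replicate 3, with a mean of 27.7 ± 13.0 (SD, n = 3). Replicates 1 and 3 were close and replicate 2 stood above them. The peak ranked between 1 and 10 by fold among all BTE1 peaks of its library. By mean fold RNR1 ranked 1 of the 1462 genes called for BTE1, and 10 without replicate 2, when its mean was 20.2.

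E2FA fold at RNR1 was 16.1, 25.7 and 22.9 in replicates 1 to 3, a mean of 21.6 ± 4.90 (SD, n = 3). The 3 libraries placed this peak between ranks 2 and 41 of their lists. Among the 2456 genes called for E2FA, RNR1 ranked 15 by mean fold. It ranked 33 without replicate 2 and 6 without replicate 1. Both proteins were therefore near the top of their own lists at RNR1, whichever library was left out.

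The 2 proteins lay at the low-coordinate end of RNR1. The strand is not part of the gene table used, so gene ends are given as the end with the lower or the higher coordinate. The merged BTE1 peaks covered chr2:9292905-9294379 and the merged E2FA peaks chr2:9292899-9293715 (TAIR10), and both spanned that annotated gene end. BTE1 summits lay 13 to 49 bp inside the gene and E2FA summits 6 to 10 bp inside it.

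**Figure D1:**
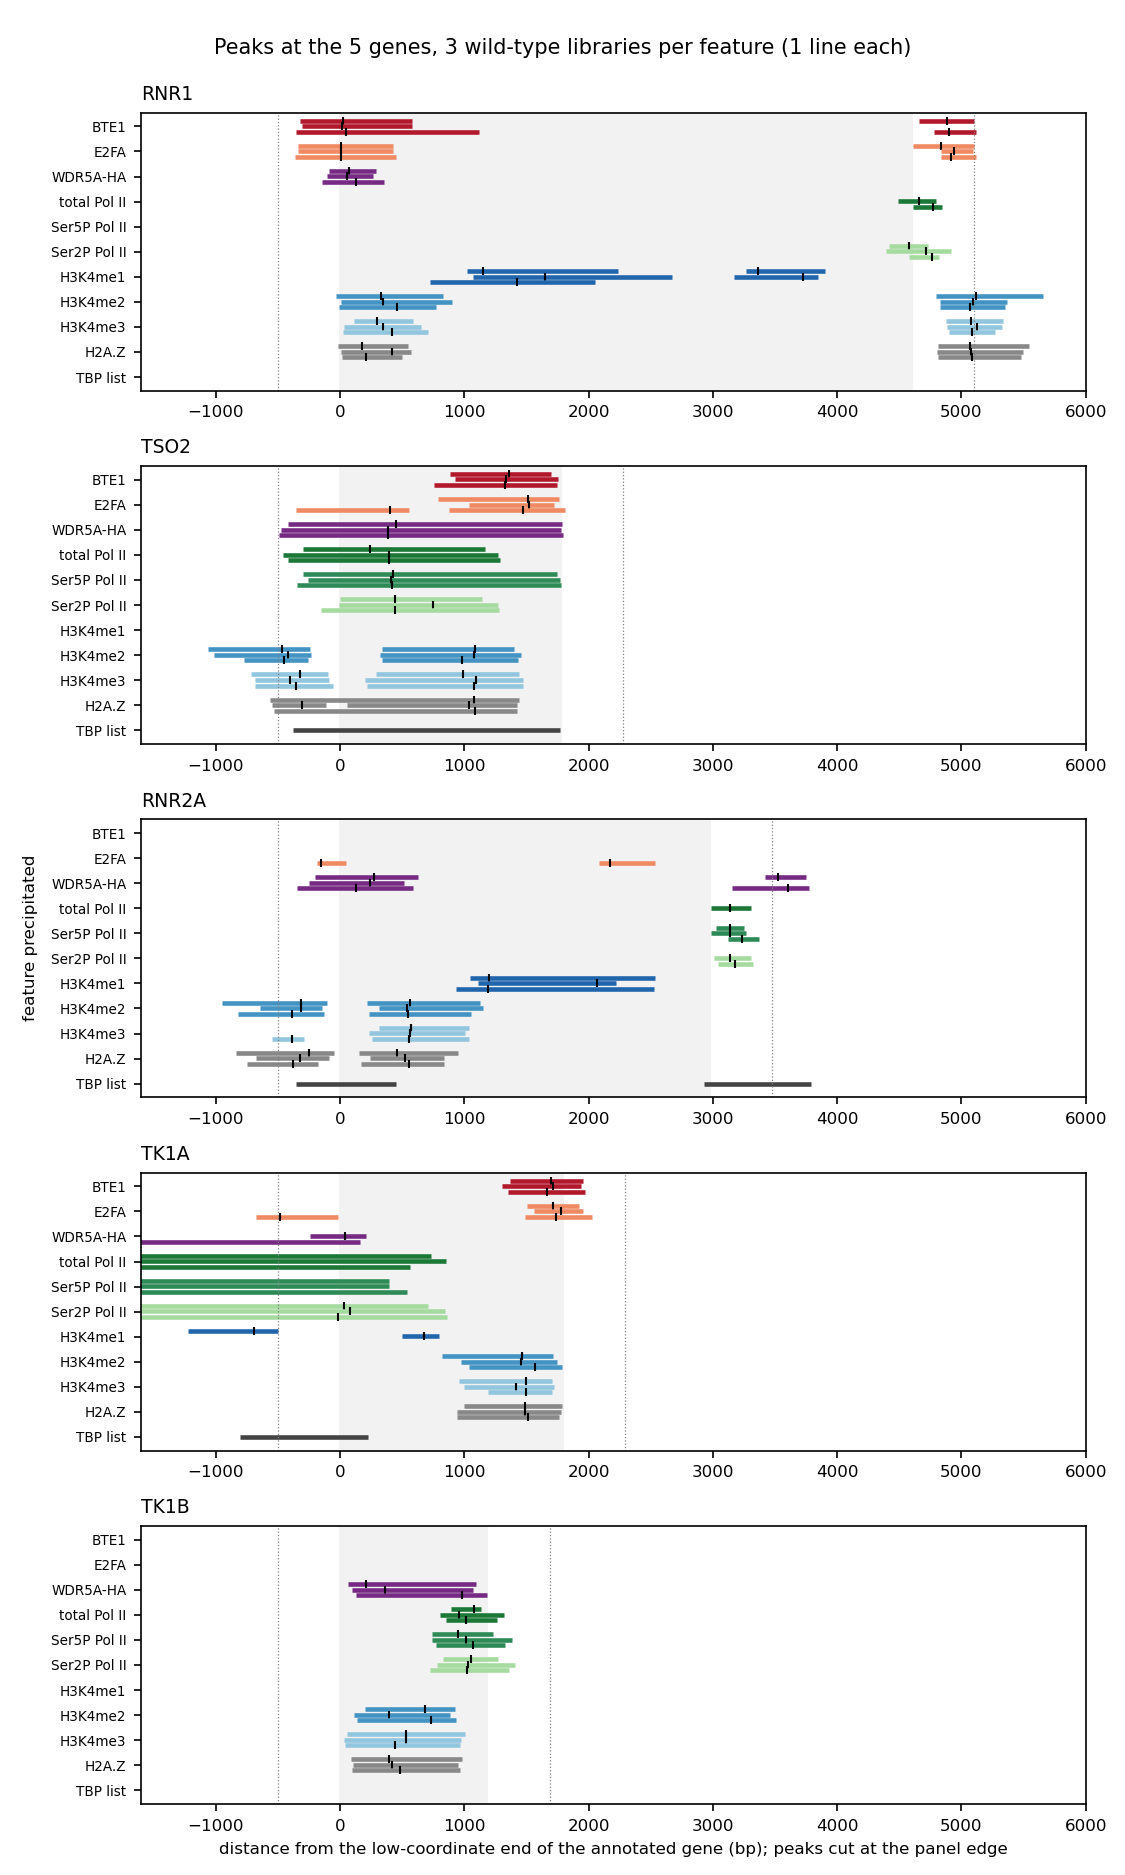
Peaks at RNR1, TSO2, RNR2A, TK1A and TK1B against distance from the low-coordinate end of the gene in bp. Each coloured line is a peak of 1 library, the black tick is its summit, the grey band is the gene and the dotted lines mark 500 bp beyond it; a peak that runs past the panel is cut there. The strongest BTE1 and E2FA peaks sit toward 1 end of RNR1, TSO2 and TK1A, and the BTE1 row is empty at RNR2A and TK1B. Weaker peaks lie toward the other end, for both proteins at RNR1 and for E2FA in replicate 3 at TSO2 and TK1A.

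A second, weaker pair of peaks lay beyond the other end of RNR1. E2FA had it in 3 of 3 libraries with a fold of 3.02 ± 0.508 (SD, n = 3), and BTE1 in 2 of 3, with folds of 2.79 and 4.20. Their summits were 4836 to 4937 bp from the low-coordinate end, outside the gene. These peaks also fell in the window of EME1A, a subunit of a structure-specific endonuclease, which begins 216 bp from RNR1.

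H2A.Z, H3K4me2 and H3K4me3 had peaks at both ends of RNR1. At the end with strong BTE1 and E2FA peaks, H2A.Z fold was 2.71 ± 0.258, H3K4me3 3.42 ± 0.558 and H3K4me2 4.36 ± 0.342 (SD, n = 3). Of all H2A.Z peaks in a library, 23.2% to 38.4% had a fold no higher than that peak. For H3K4me3 the corresponding range was 5.29% to 16.4%. On the EME1A side, H3K4me3 fold was 3.86 ± 0.570 and H3K4me2 4.89 ± 0.429 (SD, n = 3), and the ranges over libraries at the 2 ends overlapped. The H2A.Z peak there reached 7.97 ± 0.224 (SD, n = 3) and at least 98.9% of H2A.Z peaks had a fold no higher. The strong H2A.Z peak in the RNR1 window was thus shared with the neighbouring gene in 3 of 3 libraries, and the weaker one lay inside RNR1.

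WDR5A-HA fold at RNR1 was 2.63, 3.06 and 2.47 in replicates 1 to 3, with summits 60 to 130 bp inside the low-coordinate end. These summits lay 58.3 ± 38.1 bp (SD, n = 3) from the mean BTE1 summit, the closest of all features after E2FA. H3K4me1 covered 39.6% ± 10.2 of the gene (SD, n = 3), mostly in its interior. Pol II was sparse in the lists at RNR1. Ser5P had no peak in any library, total Pol II had peaks in 2 of 3 libraries with folds of 2.02 and 2.08, and Ser2P had a fold of 2.25 ± 0.241 (SD, n = 3). All of those Pol II peaks lay at the EME1A end, and no TBP region touched the window. Among all BTE1 genes, 52.4% had no Ser5P call and 35.2% no TBP region. Over all genes, Ser5P called 45.9% and TBP regions touched 57.7%, so each gap was common in any gene. How often both gaps fell on the same gene was not counted.

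The small subunit gene TSO2, 1780 bp on chromosome 3, joined BTE1 and E2FA to every form of Pol II. BTE1 fold was 5.44 in replicate 1, 9.52 in replicate 2 and 7.01 in replicate 3, with a mean of 7.32 ± 2.06 (SD, n = 3). E2FA fold was 5.46, 3.31 and 8.04, with a mean of 5.60 ± 2.37 (SD, n = 3). Replicate 2 was the highest for BTE1 and the lowest for E2FA. Replicate 3 had a further E2FA peak, with a fold of 1.71 and its summit 406 bp inside the low-coordinate end. By mean fold TSO2 ranked 350 of 1462 BTE1 genes and 628 of 2456 E2FA genes. The merged BTE1 peaks covered chr3:9980594-9981596 and the merged E2FA peaks chr3:9980632-9981651, toward the high-coordinate end of the gene. BTE1 summits lay 419 to 450 bp inside that end and E2FA summits 262 to 303 bp inside it.

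WDR5A-HA at TSO2 was the strongest among the 5 genes and had 1 peak over 99.9% ± 0.130 of the gene (SD, n = 3). Its fold was 4.11, 4.87 and 5.32 in replicates 1 to 3, and the TSO2 mean of 4.77 ± 0.613 (SD, n = 3) ranked 974 of 14205 genes called for WDR5A-HA. Ser5P Pol II covered 99.2% ± 0.865 of the gene at a fold of 4.46 ± 0.613, total Pol II 69.7% ± 3.56 at 4.10 ± 0.299, and Ser2P 69.2% ± 4.24 at 3.12 ± 0.234 (SD, n = 3). A TBP region of 2156 bp spanned the gene as well. Their summits kept away from those of BTE1. Total Pol II lay 997 ± 91.2 bp and WDR5A-HA 931 ± 36.1 bp from the mean BTE1 summit, toward the low-coordinate end (SD, n = 3).

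H3K4me3 at TSO2 had a fold of 8.04 ± 0.819 and H2A.Z a fold of 6.60 ± 0.374 (SD, n = 3). In replicate 3 the highest H3K4me3 peak had its summit 354 bp outside the gene. The H3K4me3 peaks with summits inside the gene had a fold of 7.74 ± 1.11 (SD, n = 3). H2A.Z summits lay 273 ± 22.3 bp from the mean BTE1 summit (SD, n = 3), and H3K4me3 and H2A.Z peaks covered 69.1% and 79.2% of the gene. H3K4me1 had no peak in the TSO2 window in any library. TSO2 overlaps the gene AT3G27050 by 3 bp at the low-coordinate end. Each WDR5A-HA, Pol II, H3K4me2, H3K4me3 and H2A.Z call of TSO2 included peaks shared with the window of AT3G27050. No BTE1 peak of TSO2 was shared with another gene.

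The other small subunit gene, RNR2A, 2978 bp on chromosome 3, had the fewest calls of the 5 genes, 6 of 10 features against a median of 5 over all genes. The E2FA peaks in replicate 3 had folds of 2.3 and 1.7, the first inside the gene and the second 151 bp outside the low-coordinate end. At that end lay WDR5A-HA, with a fold of 2.50 ± 0.234 and summits 125 to 275 bp inside the gene, H3K4me3 with a fold of 7.10 ± 0.410, and H2A.Z with 4.48 ± 0.190 (SD, n = 3). RNR2A overlaps AT3G23570 by 153 bp there, and peaks of these 3 features fell in the windows of both genes in 3 of 3 libraries. H3K4me1 covered 47.0% ± 8.35 of RNR2A (SD, n = 3) and was not shared with that gene.

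No Pol II peak of any form touched the body of RNR2A. The Ser5P peaks that called it, with folds of 1.91, 2.88 and 1.98, had summits 159 to 254 bp beyond the high-coordinate end and were shared with the window of AT3G04505, a long non-coding RNA gene 340 bp away. Total Pol II had such a peak in 1 library and Ser2P in 2. RNR2A had TBP regions at both ends, of 798 and 861 bp.

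TK1A, a thymidine kinase gene of 1794 bp on chromosome 3, had the most even BTE1 values. BTE1 fold was 6.63, 6.77 and 6.39 in replicates 1 to 3, a mean of 6.60 ± 0.193 (SD, n = 3) and rank 423 of 1462 called genes. E2FA fold was 3.61, 3.48 and 6.37, a mean of 4.49 ± 1.63 (SD, n = 3) and rank 858 of 2456. Replicates 1 and 2 were close for E2FA and replicate 3 was higher. Replicate 3 had a further E2FA peak, with a fold of 2.10 and its summit 480 bp outside the low-coordinate end. The merged BTE1 peaks covered chr3:2490688-2491362 and the merged E2FA peaks chr3:2490879-2491416, at the high-coordinate end. BTE1 summits lay 75 to 129 bp inside that end, and E2FA summits 15 to 76 bp inside it.

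H2A.Z, H3K4me2 and H3K4me3 shared that end of TK1A. H2A.Z fold was 6.72 ± 0.542 and H3K4me2 4.10 ± 0.372 (SD, n = 3). H3K4me3 fold was 4.38 ± 0.335 (SD, n = 3), and 11.0% of the genes called for H3K4me3 had a mean fold no higher. For RNR1 that share was 8.99%, from a mean of 4.04 that took replicates 1 and 3 from the EME1A side. At the BTE1 end of RNR1 the H3K4me3 fold was 3.42. TSO2, at 68.6%, stood apart from TK1A and RNR1, although BTE1 and E2FA were called at all 3.

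Pol II at TK1A entered from the opposite end. Total Pol II had a fold of 7.48 ± 1.09, Ser5P 4.91 ± 0.130 and Ser2P 7.23 ± 0.797 (SD, n = 3), but these were peaks of 2963 to 6093 bp that also covered the windows of AT3G07790 and OBE1. The total Pol II and Ser5P summits lay 1765 to 2314 bp outside TK1A, and the Ser2P summits between 15 bp outside the low-coordinate end and 80 bp inside it. Between 22.1% and 48.0% of TK1A lay under those peaks, and none reached the BTE1 summits. AT3G07790 directly adjoins TK1A, so the folds of Pol II in this window cannot be assigned to TK1A. A TBP region of 1030 bp lay at the same end, and WDR5A-HA had peaks there in 2 of 3 libraries, with folds of 2.00 and 3.54.

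TK1B, the second thymidine kinase gene, 1187 bp on chromosome 5, had strong H2A.Z and neither BTE1 nor E2FA. H2A.Z fold was 8.34, 7.98 and 7.77 in replicates 1 to 3, a mean of 8.03 ± 0.288 (SD, n = 3), and TK1B ranked 238 of 22018 genes called for H2A.Z. H3K4me3 fold was 7.35 ± 0.612 and its peaks covered 79.0% ± 0.717 of the gene; WDR5A-HA peaks covered 86.1% ± 3.56 at a fold of 2.22 ± 0.0948 (SD, n = 3). The Pol II folds were 2.46 ± 0.321 for the total form, 3.76 ± 0.567 for Ser5P and 4.03 ± 0.401 for Ser2P (SD, n = 3), with summits 108 to 236 bp inside the high-coordinate end. There TK1B overlaps TGH, a gene of RNA processing, by 39 bp, and all these peaks were shared with the TGH window. TK1B had no H3K4me1 peak and no TBP region.

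**Figure D2:**
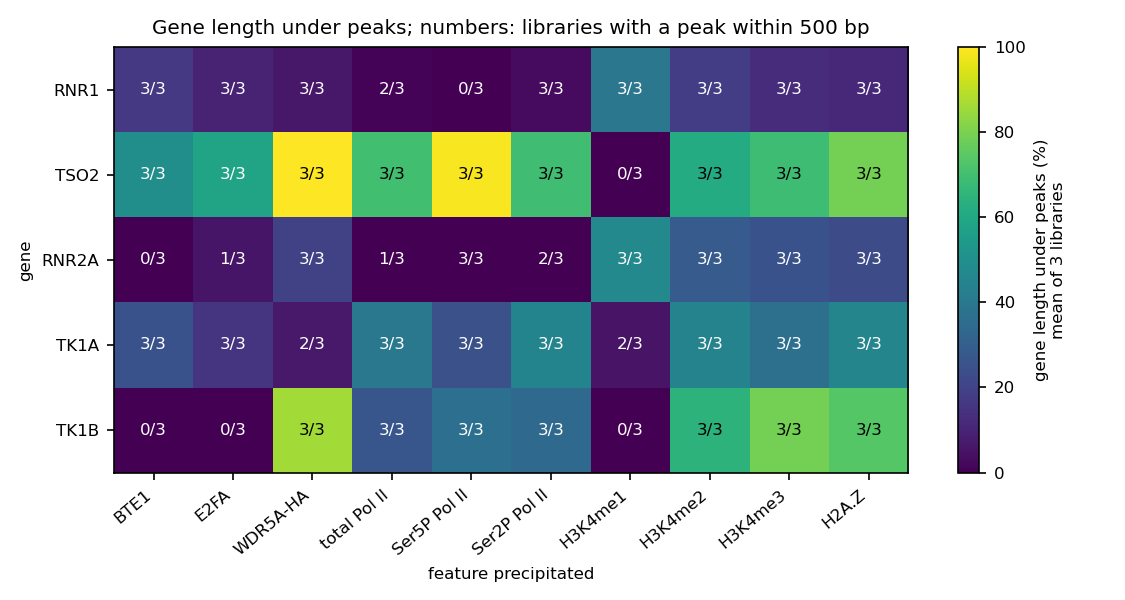
Share of each gene's length under peaks, as a percent and the mean of 3 libraries (colour), by gene and feature. The number in a cell counts the libraries with a peak within 500 bp of the gene: 3 of 3 for BTE1 at RNR1, TSO2 and TK1A, 0 of 3 for Ser5P at RNR1, and 0 of 3 for H3K4me1 at TSO2 and TK1B.

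WDR5A-HA called 4 of the 5, against 51.8% of all genes, and the exception was TK1A. Total Pol II called 3 (TSO2, TK1A and TK1B) against 46.7%, Ser5P called 4 against 45.9%, and Ser2P called 4 against 47.6%. H3K4me1 called 2 (RNR1 and RNR2A) against 38.3%. H3K4me2, H3K4me3 and H2A.Z called 5 of 5, where 63.7%, 64.1% and 80.2% of all genes were called. TBP regions touched 3 (RNR2A, TSO2 and TK1A) against 57.7%.

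Counts of Pol II calls rested on how a peak is tied to a gene. When the summit had to lie inside the gene, total Pol II, Ser5P and Ser2P were each left with 2 of the 5 genes, TSO2 and TK1B. Of all genes, 18.9%, 17.5% and 17.3% were called. BTE1 and E2FA stayed at the same 3 genes under that rule, by which they called 2.15% and 3.25% of all genes.

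The summits of BTE1 and E2FA were compared at the 3 genes that carried both. At RNR1 the mean E2FA summit lay 20.3 bp from the mean BTE1 summit, and the 3 positions of each protein did not overlap (exact permutation test, two-sided, p = 0.1, adjusted p = 0.15 over 3 genes). At TSO2 the distance was 162 bp, again without overlap (exact permutation p = 0.1, adjusted p = 0.15). At TK1A it was 50.7 bp and the positions overlapped (exact permutation p = 0.2, adjusted p = 0.2). In 3 of 3 genes the E2FA summit lay nearer to the gene end than the BTE1 summit, as it did in 61% of the 1128 genes called for both. No difference passed 0.05, and with 3 libraries against 3 the smallest p possible is 0.1.

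**Figure D3:**
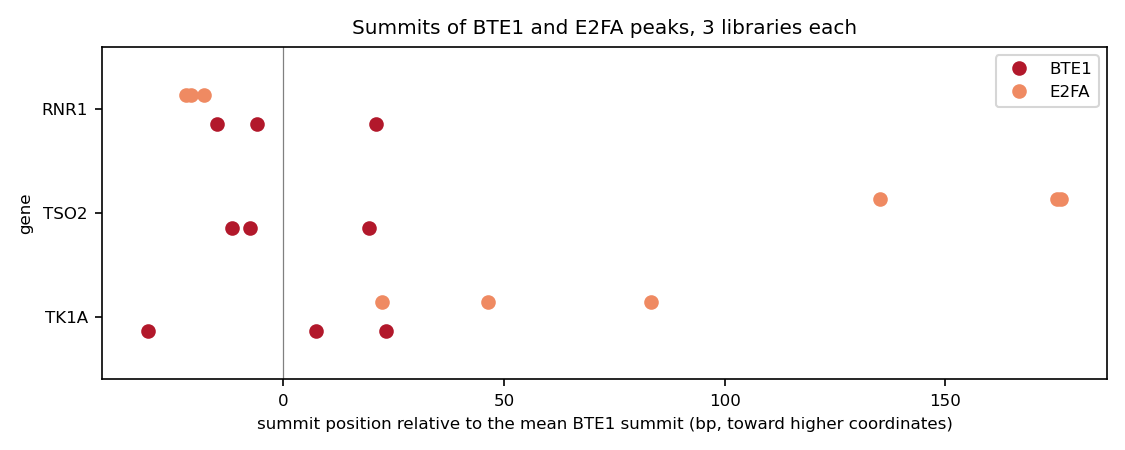
Summit positions of the BTE1 and E2FA peaks at RNR1, TSO2 and TK1A, in bp from the mean BTE1 summit of the gene, 1 point for each of 3 libraries. E2FA lies 20.3 bp to the left at RNR1 and 162 bp and 50.7 bp to the right at TSO2 and TK1A, each time toward the nearer gene end; only at TK1A do the points of both proteins overlap along the axis.

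Over the 1128 genes called for both proteins, the median distance between the mean summits was 28.7 bp, with quartiles of 13.7 and 56.4 bp. RNR1 lay within these quartiles and so did TK1A. The TSO2 distance was wider than in most genes, since 89.9% of the 1128 genes had a distance no larger. All distances are within the size of the sheared fragments.

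Related genes were compared within each library wherever both had peaks in 3 libraries, which gave 11 tests. RNR2A was lower than TSO2 in 3 of 3 libraries for WDR5A-HA (mean log2 ratio -0.93 ± 0.30) and H2A.Z (-0.56 ± 0.11; SD, n = 3), and for Ser5P, where the log2 ratios were -1.21, -0.43 and -1.36. The mean log2 ratios for H3K4me2 and H3K4me3, -0.42 ± 0.39 and -0.18 ± 0.22 (SD, n = 3), had different signs between libraries. These signs depended on the peak taken. In replicate 3 the H3K4me2 peak taken for RNR2A (3.89) had its summit outside the gene. The peak inside had 3.26, against 3.87 at TSO2. For H3K4me3 in replicate 3 the peak taken for TSO2 (7.71) had its summit outside. The peak inside had 6.81, against 7.06 at RNR2A. TK1A was above TK1B in 3 of 3 libraries for total Pol II (mean log2 ratio 1.60 ± 0.20), Ser2P (0.84 ± 0.19), Ser5P (0.40 ± 0.23) and H3K4me2 (0.40 ± 0.11; SD, n = 3), and below it for H3K4me3 (-0.75 ± 0.20) and H2A.Z (-0.26 ± 0.12; SD, n = 3). The Pol II peaks on the TK1A side are those shared with AT3G07790 and OBE1. The Ser5P peaks of RNR2A lay beyond the gene and were shared with AT3G04505. Its other compared peaks were shared with AT3G23570, those of TSO2 with AT3G27050 and those of TK1B with TGH. The ratios thus compare windows and not the genes alone. None of the 11 ratios passed the exact sign-flip test, two-sided (adjusted p 0.306 to 0.5), in which 3 libraries cannot go below p = 0.25.

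**Figure D4:**
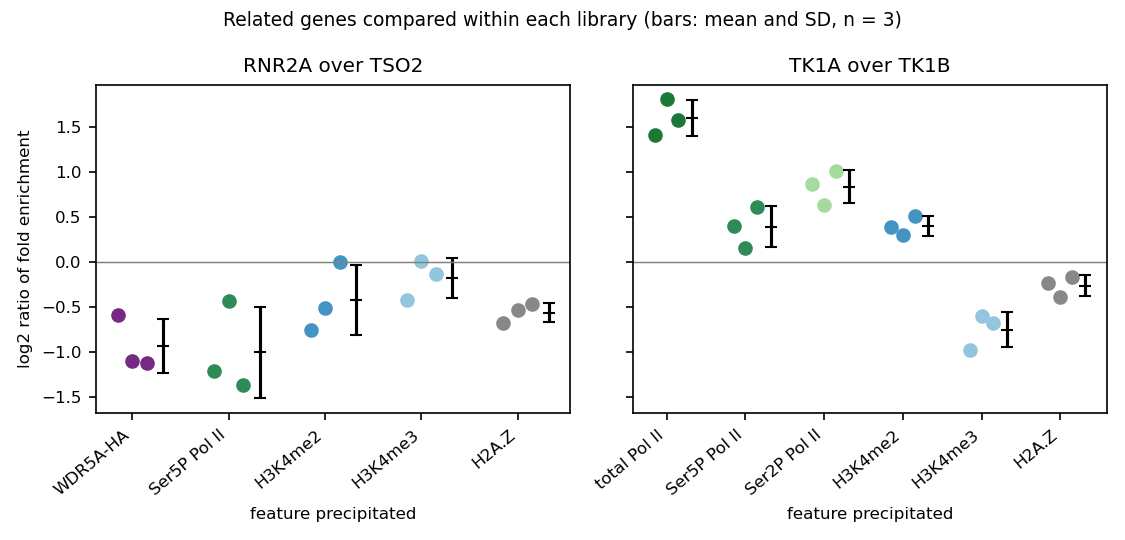
Log2 ratio of fold enrichment between related genes, by feature, 1 point per library, with the mean and SD of 3 libraries as a black bar. In 9 of the 11 comparisons all 3 libraries lie on 1 side of 0; the exceptions are H3K4me2 and H3K4me3 for RNR2A over TSO2.

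Other genes of deoxynucleotide supply were read as a list of 20 loci. BTE1 called 3 of the 20, or 15.0%, against 5.33% of all genes, and E2FA 4, or 20.0%, against 8.95%. RNR2B, a further small subunit locus that is annotated as a transcribed pseudogene, had a BTE1 fold of 14.9, 14.9 and 14.4 and an E2FA fold of 8.08, 5.94 and 9.51 in replicates 1 to 3. DUT1, a dUTP pyrophosphatase, had a BTE1 fold of 7.12 ± 1.46 and an E2FA fold of 14.3 ± 4.41 (SD, n = 3). AT4G20320 had a BTE1 fold of 13.5, 28.4 and 12.1, with replicate 2 the highest as at RNR1, and an E2FA fold of 11.0 ± 0.570 (SD, n = 3). NDPK2, a nucleoside diphosphate kinase, was called for E2FA alone, with a fold of 2.37 ± 0.399 (SD, n = 3). The BTE1 and E2FA peaks of RNR2B, DUT1 and AT4G20320 also touched the windows of neighbouring genes. These were FLA20 at RNR2B, AT3G07605, AT3G46930 and AT3G46950 at DUT1, and AT4G20325 at AT4G20320. The highest BTE1 and E2FA peaks had no summit inside RNR2B or AT4G20320. At DUT1 the BTE1 summit lay inside the gene in 1 of 3 libraries and the E2FA summit in none. The remaining 16 loci, among them the thymidylate synthase genes THY-1 and THY-2 and the guanylate kinase genes GK-1 and AGK2, were not called for either protein.

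For the other features, H3K4me3 called 18 of the 20 loci (64.1% of all genes), H3K4me2 16 (63.7%), H3K4me1 14 (38.3%) and H2A.Z 19 (80.2%). WDR5A-HA called 16 of them (51.8% of all genes), total Pol II 13 (46.7%), Ser5P 12 (45.9%), Ser2P 14 (47.6%) and TBP 15 (57.7%). The median fold over the called loci was 7.55 for H3K4me3 and 4.73 for H2A.Z, against 7.36 and 4.22 over all called genes. Of the 5 genes, 4 had a mean H3K4me3 fold below the list median, and TSO2 was above it. The 4 ran from 4.04 ± 0.344 at RNR1 to 7.35 ± 0.612 at TK1B (SD, n = 3). RNR2A (7.10 ± 0.410), TK1B and TSO2 (8.04 ± 0.819) lay near the list median (SD, n = 3). The RNR1 mean took replicates 1 and 3 from the EME1A side, and the H3K4me3 fold inside RNR1 was 3.42. For H2A.Z, 4 were above the list median, from 6.60 ± 0.374 at TSO2 to 8.03 ± 0.288 at TK1B (SD, n = 3), and RNR2A was below it. RNR1 was among the 4 only through the peak shared with EME1A (fold 7.97). Its H2A.Z peak inside the gene, at 2.71, was below the list median.

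The 6 MCM helicase genes, another group of DNA synthesis genes, were all called for BTE1 and E2FA. Their mean BTE1 folds ran from 8.74 to 24.4 with a median of 15.3, and their mean E2FA folds from 9.77 to 27.5 with a median of 18.1. RNR1 lay above all 6 by mean BTE1 fold and inside their range by E2FA fold. By the mean of 3 libraries, TSO2 and TK1A lay below all 6 for both proteins. For BTE1 this did not hold library by library: TSO2 was above MCM3 in replicates 2 (9.52 against 8.97) and 3 (7.01 against 6.18), and TK1A was above it in replicate 3 (6.39). Without replicate 2 the RNR1 mean was 20.2, under MCM7, whose lowest library had 22.8. Of the 6 MCM genes, H2A.Z called 6 (80.2% of all genes), H3K4me2 5 (63.7%), H3K4me1 4 (38.3%) and H3K4me3 2 (64.1%). WDR5A-HA called 3 of them (51.8% of all genes), total Pol II 2 (46.7%), Ser5P 2 (45.9%), Ser2P 1 (47.6%) and TBP 3 (57.7%). The distance between mean BTE1 and E2FA summits was 12.0 to 29.3 bp at the MCM genes, in the range of RNR1 (20.3 bp). The BTE1 and E2FA peaks of MCM3, MCM4, MCM6 and MCM7 also touched windows of neighbouring genes, as did the E2FA peaks of MCM5. The E2FA summit lay inside the gene in 3 of 3 libraries at MCM7 and in none at the other MCM genes. The BTE1 summit did so in 3 of 3 at MCM2, MCM5 and MCM7, 2 at MCM6, 1 at MCM4 and 0 at MCM3.

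**Figure D5:**
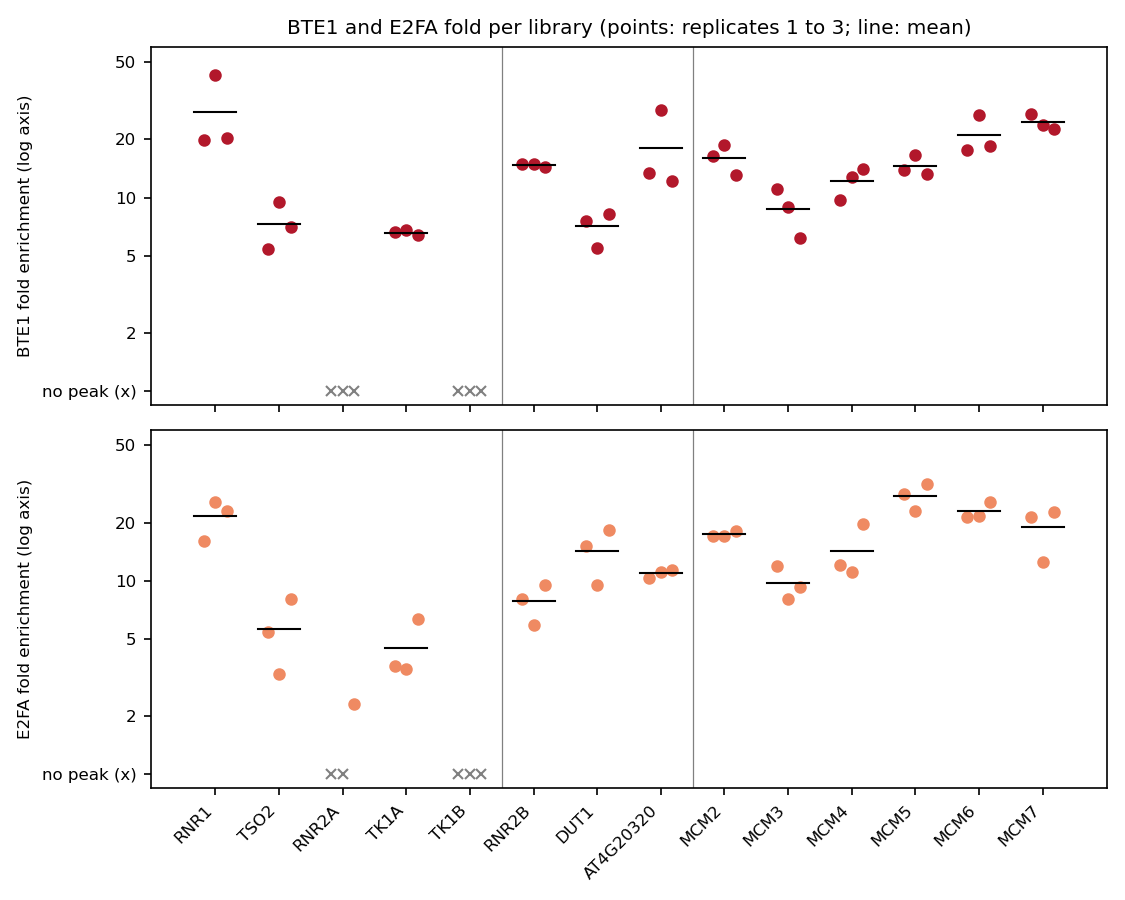
Fold enrichment of BTE1 (top) and E2FA (bottom) on log axes, 1 point per library for replicates 1 to 3 from left to right, with the mean as a line and a cross where a library has no peak; from left to right the 5 genes, 3 other loci of deoxynucleotide supply and the 6 MCM genes. The mean lines of TSO2 and TK1A lie below those of the MCM genes, with BTE1 points that overlap those of MCM3, and RNR2A and TK1B have no BTE1 point.

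The genes most like each of the 5 were found by the mean absolute difference in fold percentile over the 30 libraries, with 0 where a library had no peak and genes within 5000 bp left out. For RNR1 they were UBP21, a ubiquitin-specific protease (6.86 percentile points), ICU2, the catalytic subunit of DNA polymerase alpha (9.21), and MCM7 (9.79). The median over all genes was 51.3 points. The nearest genes of TSO2 were MBF1C (11.4 points), AT3G18740 (11.9) and GATA17 (12.0), and those of TK1A were the histone H3.1 gene AT1G09200 (10.02), AT4G02465 (12.3) and RABA5E (13.4). For RNR2A they were AT1G09575, AT1G49580 and AT1G61980, at 10.6 to 10.9 points, and for TK1B AT5G41960, AT2G41950 and AT3G13275, at 8.28 to 10.9 points. The measure includes the BTE1 and E2FA libraries, so whether these genes are called for either protein is largely set by the choice. It also takes the highest peak that touches a window. That peak had its summit outside the gene, in every library with a peak, for total Pol II and Ser5P at TK1A. The same held for total Pol II and H2A.Z at RNR1, and for every form of Pol II at RNR2A. In part of the libraries it held for Ser2P, H3K4me2 and H3K4me3 at RNR1, H3K4me2 at RNR2A and H3K4me3 at TSO2. In part it also held for WDR5A-HA, Ser2P and H3K4me1 at TK1A.

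Among the 5 genes the nearest pair was TSO2 with TK1A, at 24.0 points, where the medians over all genes were 50.5 for TSO2 and 52.8 for TK1A. RNR2A and TK1B were 25.6 points apart, against medians of 31.6 and 30.8. RNR1 stood 35.0 points from RNR2A and 35.1 from TSO2, both below its own median of 51.3. The first distance was above the median of RNR2A, and the second was below that of TSO2. The farthest pair was RNR2A with TK1A, at 50.1 points, which is above the median of RNR2A and below that of TK1A.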

How the data were processed

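The submitters' processing notes name fastp, Bowtie2 2.3.3 and MACS2 2.2.5 as tools and TAIR10 as the build. The deposited lists hold peaks per library, with a fold enrichment (a ratio over the caller's background), a −log10 q-value and a summit. The sources used here do not give the control behind that ratio. E2FA peaks were deposited at p 0.01 and the others at q 0.05, per the peak names. The authors' TBP list holds positions only, with no replicates. Peak lists hold no read totals, so depth is unknown and no limit that needs it was computed.

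Genes were matched by locus to the RefSeq table of TAIR10.1, which gives no strand; all 5 matched. Its bounds were checked against the TAIR10 peaks: genes held 99.1% of 15948 H3K4me3 summits, and 70.2% to 72.7% once shifted by 1000 or 2000 bp. A peak counted when at least 1 bp touched the window, and the highest fold was kept. The share of all genes called by the same rule was computed for each feature. The genes, lists and tests were chosen with earlier results of these data known. The rule for named genes was the 5 genes, listed genes called for BTE1 or E2FA, the MCM genes, genes sharing a BTE1 or E2FA peak, and the 3 nearest genes; other neighbours and examples of uncalled loci were named after their values were seen. The motif search planned for the promoters was not run, since it needs sequence not used here. No pair of libraries of a feature shared an identical peak.

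Same-numbered BTE1 and E2FA libraries deviated together over 1128 genes (correlation of log2 fold deviations 0.52, 0.43 and 0.53). Labels do not say what these libraries share. The main summit test was therefore unpaired, and pairing by replicate number was run as an alternative. Exact tests were adjusted by Benjamini-Hochberg and tested on simulated data. P-values cover the spread between 3 biological replicates. Alternatives covered the window, overlap, peak threshold, number of libraries and left-out replicates, and summit rules were added after seeing the data. The software was numpy 2.4.6, scipy 1.17.1, pandas 2.3.3 and matplotlib 3.10.9 under Python 3.11.15.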

Additional observations from a re-analysis of the deposited data

How the results depend on the processing

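RNR1, TSO2 and TK1A were the genes called for BTE1 and for E2FA under every alternative run. The share of all genes called ran from 2.15% to 7.87% for BTE1 and from 3.25% to 17.9% for E2FA. Among peaks at or above the median q of their library, WDR5A-HA called 2 genes (29.2% of all genes), Ser2P 2 (28.4%), H3K4me1 0 (16.0%) and H3K4me3 2 (31.1%). With 1000 bp flanks H3K4me1 called 4 (47.1% of all genes). With the summit inside the gene, an alternative chosen after seeing the data, total Pol II, Ser5P and Ser2P called 2 each (18.9%, 17.5% and 17.3% of all genes). With the gene body alone, folds at RNR1 were 4.36 for H3K4me2, 3.42 for H3K4me3 and 2.71 for H2A.Z, and the H3K4me2 fold at RNR2A was 3.54, since the peak beyond the gene was left out. With 1000 bp flanks the H3K4me3 fold at TK1A was 5.20 and the total Pol II fold at TK1B 4.76. With the replicate block, the summit differences of -20.3 bp at RNR1, 162 bp at TSO2 and 50.7 bp at TK1A had an exact sign-flip adjusted p of 0.25, and no call changed. Without the block, the pair ratios had adjusted p of 0.122 to 0.2 by the exact permutation test, and none passed. Ranked by q in place of fold, 7 percentiles moved by over 1 SD and 31 did not, and 1 of the 3 nearest genes was shared for RNR2A and for TK1A. Tests of 3 libraries against 3 could not pass 0.05 under any setting, so they say nothing of stability.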
